A study of Danio rerio with 6 samples.

Results

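The carbohydrate genes described here are the enzymes and carriers of glycolysis, lactate and pyruvate metabolism and glycogen metabolism in the regenerating zebrafish (Danio rerio) heart. They were chosen by a pattern of the gene symbols of these families. The pattern reads no measured value, but the families were picked with earlier results of these data known. The pattern found 92 genes among the 24667 genes present in both deposited tables. Of the 92, 84 were grouped as carrying out a step of these pathways or regulating one. These 84 include slc2a13b and SLC2A13 (3 of 3), grouped with the glucose carriers by family name though they are inositol carrier genes. The other 8 match the pattern by symbol but were grouped under other functions, namely pgm5, pgam5, pkmyt1, SLC2A4RG, slc16a10, slc16a12a, slc16a12b and SLC16A13. RNA was sequenced from hearts of adult fish of the TU-AB strain, 3 samples labelled Tg(hsp70l:DN-MAML) (called DN-MAML) and 3 labelled wild type (WT). The transgene encodes a dominant-negative form of Mastermind, a co-activator that Notch needs for transcription. Its promoter, hsp70l, is induced by heat and is not specific to a cell type. Fish of both groups were 6 to 12 months old and were warmed to 38 C for 1 h each day. Their regenerating hearts were taken at 5 days after amputation. The labels do not say whether a sample is 1 heart or a pool, and the p-values below therefore reflect no more than how these samples scatter, which may be technical.

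Glycolysis splits glucose into pyruvate and yields ATP without oxygen. Pyruvate is then reduced to lactate by lactate dehydrogenase and exported, or enters the mitochondrion and is oxidised by the pyruvate dehydrogenase complex, which the pyruvate dehydrogenase kinases switch off. Most steps have several isozymes, and those called muscle forms in mammals are abundant in skeletal muscle and heart. Adult heart muscle lives mainly on fatty acids, and in the injured zebrafish heart the dividing cardiomyocytes next to the wound are known for a turn towards glycolysis.

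Expression is given as FPKM, fragments scaled to the length of a gene and to the size of a library, so levels can be set side by side between genes. The depth of each sample is unknown, since the files hold no counts per sample. The FPKM of a sample added up to between 852778 and 914709, and between 22976 and 24094 genes had a value above 0. Differences were tested with limma on log2(FPKM + 0.5), on which the differences of low genes are understated, for 16556 genes whose mean over the samples was 0.5 FPKM or more. Of the 92 carbohydrate genes, 71 reached that mean and 21 did not. As the marker genes of the tissue, the cardiomyocyte list (8 genes, myosin light chain myl7 and others) had a summed level of 38240 to 47329 FPKM in DN-MAML and of 44700 to 53340 FPKM in WT. All 8 were on the lower side in DN-MAML (median log2 difference -0.18), from -0.70 for vmhc to -0.05 for tnni1b. Among all genes tested 44.9% were on that side, and 65.4% of those with a mean of at least 100 FPKM. In 4 of the 8 the groups did not overlap, where 20.4% of all genes with a mean of at least 100 FPKM were lower with no overlap. The erythroid markers (10 identifiers, all on the lower side) summed to 11463 to 17442 FPKM in DN-MAML and 18600 to 32974 FPKM in WT, and the leukocyte markers (9 genes, all on the higher side) to 249 to 299 FPKM in DN-MAML and 178 to 237 FPKM in WT. The 3 smooth muscle markers summed to 218 to 265 FPKM in DN-MAML and 349.6 to 439 FPKM in WT. The 4 endothelial markers summed to 144 to 186 FPKM in DN-MAML and 138 to 161 FPKM in WT. The 6 epicardial and fibroblast markers summed to 767 to 1039 FPKM in DN-MAML and 521 to 1016 FPKM in WT. Of these 6, 4 lay above WT and 2 below, with log2 differences from -0.07 for col1a1a to 0.79 for krt4. The part of these cell types in the results was not tested. WT replicate 1 held the highest value of the 6 samples for many of the genes described here, and values without it are given where a sign turned. In bulk RNA of hearts, fewer cells of a type and less RNA per cell cannot be told apart.

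Carbohydrate genes lay more often below than above their WT level in DN-MAML hearts, by small amounts. Of the 71 tested, 46 (64.8%) lay below WT and 25 above, with a median log2 difference of -0.12, where 44.9% of all genes tested lay below WT and the median of all genes was 0.03. None of the 71 passed limma's test at an adjusted p of 0.05, where 0.0966% of all genes passed. At an unadjusted p under 0.05, 9 were lower (12.7% of the 71, against 6.23% of all genes) and 2 were higher (2.82%, against 6.99% of all genes). Without the genes of other functions, among them pgm5, 66 were tested, with 8 lower (12.1%) and 2 higher (3.03%) at that p. The groups did not overlap, lower in DN-MAML, for 13 of the 71 (18.3%), where this holds for 8.98% of all genes, and higher for 5 (7.04%), where it holds for 9.83% of all genes. Those 5 include the inositol carrier genes slc2a13b and SLC2A13 (3 of 3). Abundant genes as a whole leaned the same way. Of the 22 carbohydrate genes with a mean of at least 100 FPKM, 18 (81.8%) lay below WT with a median of -0.16, and of all 712 genes at that level 65.4% were, with a median of -0.06. Among these 22, 7 (31.8%) were lower with no overlap, against 20.4% of the 712, and 1 was higher with no overlap, where 8.15% of the 712 were. The count without overlap depended on the scaling of the FPKM. It was 20 lower and 2 higher after median-ratio scaling, where 21.8% of all genes did not overlap in either direction. It was 11 lower and 4 higher after quantile normalization, where 21.0% of all genes did not overlap. With totals set equal without the mitochondrially encoded genes it was 9 lower and 5 higher, where 21.5% of all genes did not overlap. On the deposited scale 18.8% of all genes did not overlap. After quantile normalization and with these equal totals, the count of carbohydrate genes in both directions together lay near the share of all genes. Shares of all genes by direction are not given for these scalings, so the splits into lower and higher are not read as a result.

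The authors' deposited table, whose columns bear the names of a DESeq2 result and which covers 76 of the 92 with an adjusted p, has 5 of them lower past 0.05 (6.58%, against 2.27% of all genes with an adjusted p there) and 1 higher (1.32%, against 2.11%), where 4.38% of those genes passed in either direction. Those lower are pgam2, hk1, slc16a3, slc2a1a and pgm5, the last of them grouped under other functions. The median log2 change of the 76 is -0.16 in the authors' deposited table. Signs differed between that table and limma for 7 of the 71 genes, slc2a1b, pfkpa, pfkfb2b, PDK2 (1 of 2), phkb, phkg2 and slc16a10, all with log2 values under 0.1 in size in both.

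**Figure D1:**
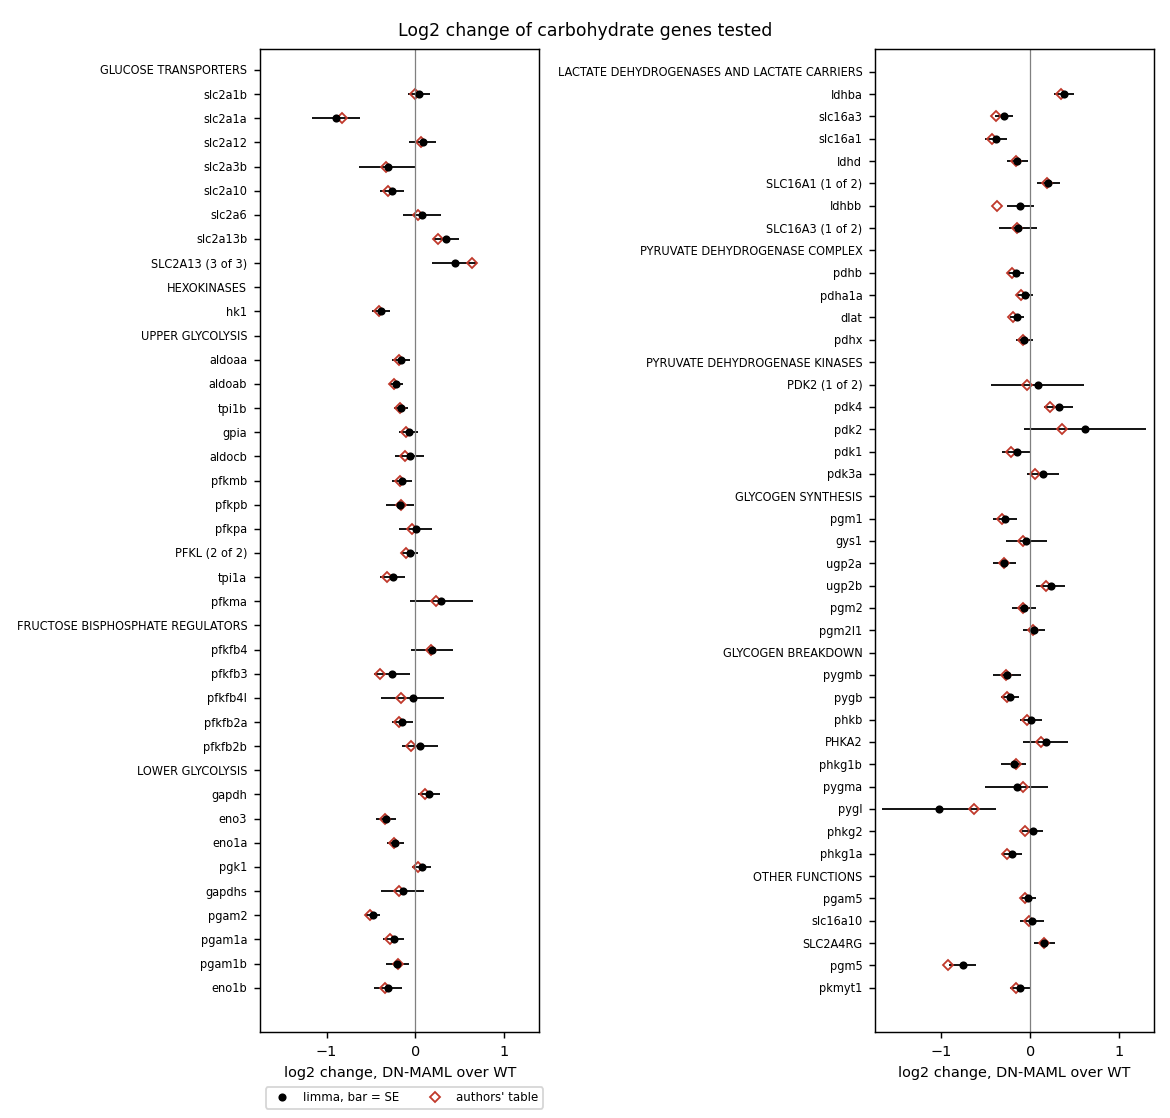
Log2 change of DN-MAML over WT (x axis) for carbohydrate genes tested, grouped by role and ordered by mean FPKM within a role. Black points are limma's values with bars of 1 SE, and open red diamonds are values of the authors' deposited table. The gene ldhba lies to the right with a short bar (0.38), and slc2a1a, pgm5 and pgam2 lie to the left (-0.89, -0.76 and -0.48). The black point furthest to the left is pygl (-1.03), with a long bar (SE 0.64).

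Glucose enters the cell through carriers of the slc2a (GLUT) family. The main one by level was slc2a1b (ENSDARG00000007412), a copy of the general glucose carrier GLUT1, with 118, 101 and 128 FPKM in DN-MAML and 123.3, 101.0 and 111 FPKM in WT. The groups overlapped, and the log2 difference was 0.04 (SE 0.12; limma, adjusted p = 0.905). The second copy, slc2a1a (ENSDARG00000001437), had 9.65, 19.5 and 11.4 FPKM in DN-MAML and 23.2, 20.6 and 30.3 FPKM in WT. All DN-MAML values lay below all WT values, though DN-MAML replicate 2 came close to WT replicate 2, and the log2 difference of -0.89 (SE 0.27) did not pass over all genes (limma, adjusted p = 0.276). For slc2a1a the authors' deposited table has -0.83 (adjusted p = 0.0333). Within the carriers of the GLUT1 and GLUT3 type, slc2a1a made up 7.33%, 15.8% and 7.83% of the summed FPKM in DN-MAML and 15.4%, 16.3% and 20.2% in WT, so the share of DN-MAML replicate 2 lay inside the WT range. The inositol carrier genes slc2a13b and SLC2A13 (3 of 3), named for copies of a gene whose human protein carries myo-inositol with protons, were higher in DN-MAML with no overlap. For slc2a13b the values were 2.79, 3.00 and 3.41 FPKM in DN-MAML and 2.75, 1.90 and 2.30 FPKM in WT (log2 0.35, SE 0.15; limma, adjusted p = 0.379). For SLC2A13 (3 of 3), near the minimum, they were 0.61, 0.61 and 1.38 FPKM in DN-MAML and 0.57, 0.59 and 0.29 FPKM in WT (log2 0.44, SE 0.26; limma, adjusted p = 0.491). In both genes the lowest DN-MAML and highest WT samples were nearly equal. The other 4 tested, slc2a12, slc2a3b, slc2a10 and slc2a6, had means between 3.61 and 5.97 FPKM, overlapped between groups and had log2 differences from -0.31 to 0.08. The 9 carriers under the minimum included slc2a2, the liver and pancreas form, and slc2a5, the fructose carrier, and none of the 9 had a mean above 0.203 FPKM.

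Hexokinase traps glucose in the cell as glucose 6-phosphate. The gene hk1 (ENSDARG00000039452) had 129, 118 and 132 FPKM in DN-MAML and 181, 158.5 and 156 FPKM in WT. Every DN-MAML sample lay below every WT sample (ratio of means 0.765). The log2 difference was -0.38 (SE 0.10; limma, unadjusted p = 0.00463, adjusted p = 0.204), while hk1 stands at -0.41 in the authors' deposited table (adjusted p = 0.00323). The liver glucokinase gck averaged 0.128 FPKM over the 6 samples and was not tested. An identifier that only the gene name table calls HK2 (ENSDARG00000101482) had 8.38, 5.58 and 7.23 FPKM in DN-MAML and 7.92, 5.13 and 5.72 FPKM in WT. Of the summed hexokinase FPKM, hk1 made up 93.8% to 95.4% in DN-MAML and 95.7% to 96.8% in WT.

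Upper glycolysis turns glucose 6-phosphate into triose phosphates. Of 12 genes tested in this stretch, 9 lay below WT (median -0.11), where 44.9% of all genes tested did. At an unadjusted p under 0.05, 1 was lower, aldoab, where 6.23% of all genes tested were. Aldolase, which cleaves fructose 1,6-bisphosphate, was expressed mainly as the muscle form. The copy aldoaa had 2835, 2611 and 2532 FPKM in DN-MAML and 3364, 2660.0 and 2924 FPKM in WT, with overlap (log2 -0.16, SE 0.10; limma, adjusted p = 0.525). The copy aldoab (ENSDARG00000034470) had 864, 941 and 892 FPKM in DN-MAML and 1067, 1014 and 1040 FPKM in WT, with no overlap (log2 -0.21, SE 0.07; limma, adjusted p = 0.295). The brain form aldocb overlapped, with a mean of 236 FPKM in DN-MAML and 249 FPKM in WT.

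The phosphofructokinases, which carry out the rate-limiting step, overlapped between the groups. The muscle form pfkmb had 193, 187 and 168 FPKM in DN-MAML and 232, 185 and 193 FPKM in WT (log2 -0.15, SE 0.11; limma, adjusted p = 0.593). The platelet forms pfkpa and pfkpb and the liver form PFKL (2 of 2) overlapped between groups, with log2 differences of 0.01, -0.17 and -0.06. Glucose phosphate isomerase gpia had 308, 269 and 294 FPKM in DN-MAML and 349.9, 274 and 296 FPKM in WT (log2 -0.07, SE 0.11; limma, adjusted p = 0.803). An identifier that only the gene name table calls GPI (ENSDARG00000103826) ranged widely, with 24.1, 67.3 and 74.6 FPKM in DN-MAML and 124, 64.3 and 110 FPKM in WT. Triosephosphate isomerase tpi1b had 669, 645 and 675 FPKM in DN-MAML and 801, 692 and 731 FPKM in WT, with no overlap (log2 -0.16, SE 0.08; limma, adjusted p = 0.444). It supplied 98.7% to 99.1% of the summed FPKM of its step in every sample.

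Fructose 2,6-bisphosphate, the main activator of phosphofructokinase, is made and removed by the pfkfb enzymes. None of the 5 tested was past an unadjusted p of 0.05. The most abundant, pfkfb4, had 20.3, 27.0 and 19.9 FPKM in DN-MAML and 24.3, 13.5 and 22.2 FPKM in WT (log2 0.19, SE 0.23; limma, adjusted p = 0.756), and pfkfb3, whose human protein is the most active in making the activator, had 9.83, 6.63 and 7.64 FPKM in DN-MAML and 7.63, 9.24 and 12.6 FPKM in WT (log2 -0.26, SE 0.20; limma, adjusted p = 0.606). In both genes the groups overlapped.

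Lower glycolysis runs from triose phosphate to pyruvate. Of 9 genes tested, 7 lay below WT (median -0.23), where 44.9% of all genes tested did, and 65.4% of those with a mean of at least 100 FPKM. At an unadjusted p under 0.05, 3 of the 9 were lower, all of them mutases or enolases with means above 100 FPKM. At that p, 6.23% of all genes tested were lower, and 13.6% of those with a mean of at least 100 FPKM. The muscle phosphoglycerate mutase pgam2 (ENSDARG00000057571), which moves the phosphate of phosphoglycerate, had 359.7, 362 and 337 FPKM in DN-MAML and 532, 482 and 464 FPKM in WT. The groups were well apart, the lowest WT sample lying above the highest DN-MAML sample by more than the SD of either group (13.9 FPKM in DN-MAML, 35.2 FPKM in WT; n = 3 each). The log2 difference was -0.48 (SE 0.08; limma, unadjusted p = 0.000529, adjusted p = 0.120, from 0.0881 to 0.297 over the alternatives). The general forms pgam1a and pgam1b were also lower on average but overlapped, at -0.24 (SE 0.12) and -0.20 (SE 0.13). The share of pgam2 in the mutase FPKM was 58.2%, 60.5% and 60.5% in DN-MAML and 62.4%, 66.1% and 62.5% in WT, again with no overlap.

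Enolase, which makes phosphoenolpyruvate, was split between the muscle form eno3 and the general form eno1a. The gene eno3 had 1043, 1189.8 and 1258 FPKM in DN-MAML and 1665, 1377 and 1344 FPKM in WT, with no overlap (log2 -0.33, SE 0.11; limma, adjusted p = 0.294). The gene eno1a had 835, 798 and 726 FPKM in DN-MAML and 1001, 833 and 928 FPKM in WT, where DN-MAML replicate 1 and WT replicate 2 overlapped (log2 -0.23, SE 0.10; limma, adjusted p = 0.375). The share of eno3 in the enolase FPKM overlapped, from 55.5% to 63.3% in DN-MAML and from 59.0% to 62.4% in WT. The neuronal form eno2 lay under the minimum, with 0.32, 0.31 and 0.31 FPKM in DN-MAML and 0.15, 0.19 and 0.20 FPKM in WT, while eno2 has the opposite sign in the authors' deposited table (-0.36, adjusted p = 0.561). The difference between the files was not resolved.

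The second general enolase eno1b averaged 2.63 FPKM in DN-MAML and 3.41 FPKM in WT, with overlap (log2 -0.31, SE 0.16; limma, adjusted p = 0.434). The genes gapdh, gapdhs and pgk1 had log2 differences between -0.14 and 0.16. Glyceraldehyde phosphate dehydrogenase gapdh, the most abundant of all 92 genes, had 5929, 5889.8 and 6961 FPKM in DN-MAML and 5989, 6219 and 4698 FPKM in WT, and the groups overlapped (log2 0.16, SE 0.12; limma, adjusted p = 0.606). The second copy gapdhs varied strongly within both groups, at 692, 469 and 517 FPKM in DN-MAML and 792, 443 and 639.6 FPKM in WT (log2 -0.14, SE 0.24; limma, adjusted p = 0.836; log2 0.05 without WT replicate 1). Phosphoglycerate kinase pgk1 had 900.0, 801 and 816 FPKM in DN-MAML and 897, 717 and 789.8 FPKM in WT (log2 0.07, SE 0.10; limma, adjusted p = 0.797). The pyruvate kinase genes pkma and pkmb are only in the authors' deposited table, with 0.05 for pkma (adjusted p = 0.871) and 0.06 for pkmb (adjusted p = 0.953) on the log2 scale. An identifier that only the gene name table calls PKM (ENSDARG00000099730) had 799, 726 and 775 FPKM in DN-MAML and 804, 643 and 755 FPKM in WT (log2 0.07, SE 0.10; limma, adjusted p = 0.806).

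**Figure D2:**
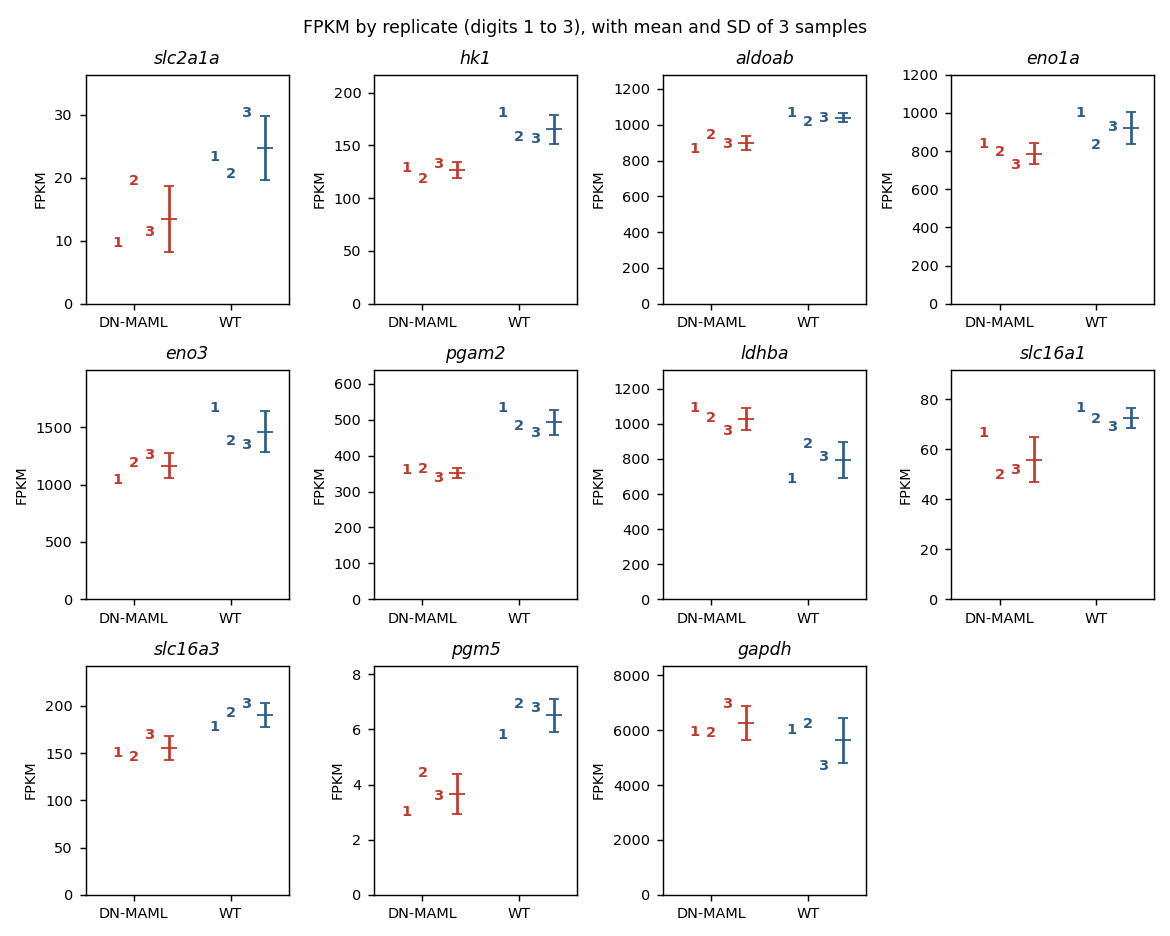
FPKM (y axis, from 0) of ldhba, of the 9 carbohydrate genes lower at an unadjusted limma p under 0.05, and of gapdh for comparison, in DN-MAML and WT. Digits mark replicates 1 to 3 and the bars mean ± SD (n = 3). The gene ldhba stands higher in DN-MAML, and the 9 stand lower on average. Of the 9, only eno1a overlaps between the groups, and gapdh overlaps as well.

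The gene ldhba (ENSDARG00000019644), a copy of the heart form of lactate dehydrogenase, had 1089, 1036 and 962 FPKM in DN-MAML and 684, 885 and 813 FPKM in WT, with no overlap. The log2 difference was 0.38 (SE 0.11; limma, unadjusted p = 0.00883, adjusted p = 0.241), and in the authors' deposited table ldhba did not pass either (0.35, adjusted p = 0.228). The muscle form ldha is only in the authors' deposited table, at -0.05 on the log2 scale (adjusted p = 0.892). An identifier that only the gene name table calls LDHA (ENSDARG00000101251) had 613, 583 and 592 FPKM in DN-MAML and 726, 496 and 602 FPKM in WT (log2 -0.01, SE 0.13; limma, adjusted p = 0.980). Taking ldhba, ldhbb and LDHA together, ldhba made up 63.9%, 63.9% and 61.8% in DN-MAML and 48.5%, 64.0% and 57.4% in WT, so the share of WT replicate 2 lay with the DN-MAML samples. The D-lactate dehydrogenase ldhd had 8.28, 8.82 and 7.49 FPKM in DN-MAML and 8.10, 10.02 and 9.29 FPKM in WT, with overlap (log2 -0.15, SE 0.12; limma, adjusted p = 0.613).

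Of the 4 carriers that move lactate and pyruvate across the cell membrane, 3 lay below WT and 1 above, and none passed limma's test. Among all genes tested, 44.9% lay below WT. The exporter slc16a3 (MCT4; ENSDARG00000045051) had 150.0, 146 and 169.6 FPKM in DN-MAML and 177, 192 and 202 FPKM in WT, with no overlap (log2 -0.30, SE 0.10; limma, adjusted p = 0.283), and slc16a3 stands at -0.39 in the authors' deposited table (adjusted p = 0.00837). The carrier slc16a1 (MCT1; ENSDARG00000068572) had 66.3, 49.6 and 51.7 FPKM in DN-MAML and 76.3, 72.2 and 68.7 FPKM in WT, also with no overlap (log2 -0.38, SE 0.13; limma, adjusted p = 0.283; authors' deposited table -0.43, adjusted p = 0.0568). The copy SLC16A1 (1 of 2) was the one above WT, at 5.82 FPKM on average in DN-MAML and 4.96 FPKM in WT (log2 0.21), and SLC16A3 (1 of 2) averaged 0.783 FPKM in DN-MAML and 0.950 FPKM in WT. Both overlapped. Their summed level with the main copies was 224, 202 and 227 FPKM in DN-MAML and 259.7, 271 and 277 FPKM in WT.

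**Figure D3:**
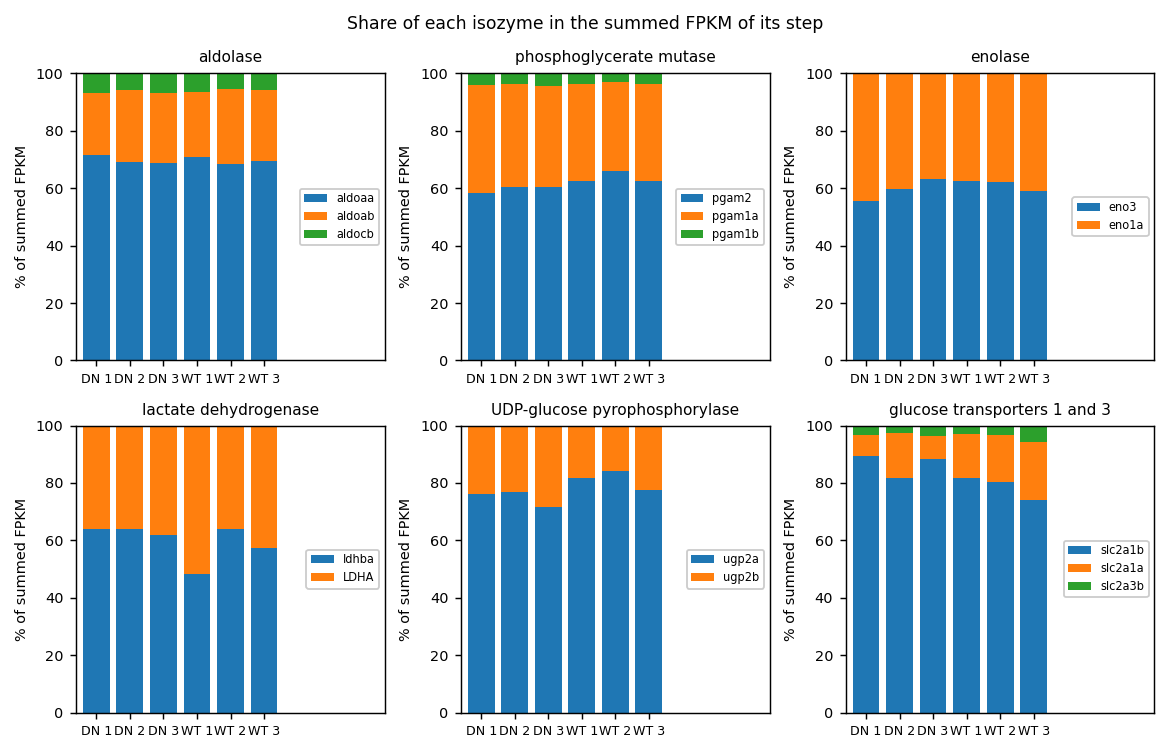
Share (%, y axis) of each isozyme in the summed FPKM of its step in DN-MAML replicates 1 to 3 (DN) and WT replicates 1 to 3, with genes under 1% in every sample left out of the drawing. The aldolase bars look alike in all samples (aldoaa 68.4% to 71.5%), while slc2a1a, pgam2 and ugp2a take smaller mean shares in DN-MAML (10.3%, 59.7% and 75.0%) than in WT (17.3%, 63.7% and 81.1%).

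The pyruvate dehydrogenase complex commits pyruvate to oxidation. All 4 subunit genes tested lay below WT (median -0.11), none past an unadjusted p of 0.05. Of all genes tested 44.9% lay below WT, and of those with a mean of at least 100 FPKM 65.4% did. The E1 beta subunit pdhb had 235, 215 and 199 FPKM in DN-MAML and 250.5, 245 and 232 FPKM in WT, with overlap (log2 -0.17, SE 0.09; limma, adjusted p = 0.474). The E2 subunit dlat had 99.3, 94.3 and 99.7 FPKM in DN-MAML and 110, 107 and 109 FPKM in WT, with a narrow spread and no overlap (log2 -0.15, SE 0.08; limma, adjusted p = 0.458). The E1 alpha subunit pdha1a and the E3-binding pdhx overlapped, at -0.06 and -0.07. The second E1 alpha copy pdha1b averaged 0.213 FPKM and was not tested.

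Of the 5 kinases that shut the complex off, 4 lay above WT (median 0.14), where 55.1% of all genes tested did, and none was past an unadjusted p of 0.05. Of the 5, 2 lie below WT in the authors' deposited table, where their median is 0.05. The fasting-induced kinase pdk4 had 59.5, 55.9 and 58.6 FPKM in DN-MAML and 35.4, 55.5 and 50.4 FPKM in WT, where the groups did not overlap but DN-MAML replicate 2 and WT replicate 2 were nearly equal (log2 0.32, SE 0.16; limma, adjusted p = 0.432). The kinase copies pdk2 and PDK2 (1 of 2) spread widely from sample to sample. For pdk2 the values were 14.3, 44.1 and 20.4 FPKM in DN-MAML and 6.36, 17.8 and 30.1 FPKM in WT (log2 0.62, SE 0.69; limma, adjusted p = 0.735). For PDK2 (1 of 2) they were 36.9, 79.6 and 54.5 FPKM in DN-MAML and 28.0, 48.3 and 98.8 FPKM in WT (log2 0.09, SE 0.53; limma, adjusted p = 0.962). The log2 difference of PDK2 (1 of 2) was -0.34 with WT replicate 1 left out and -0.19 with DN-MAML replicate 2 left out, and that of pdk2 was 0.02 without WT replicate 1. Both copies were highest in DN-MAML replicate 2 among the DN-MAML samples and in WT replicate 3 among the WT samples. How reads were divided between gene copies is not stated in the sources used here, so values of such copies are uncertain. The other kinases pdk1 and pdk3a averaged 4.08 and 3.99 FPKM in DN-MAML and 4.57 and 3.58 FPKM in WT, with overlap.

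Glycogen, the stored form of glucose, is built from glucose 1-phosphate and UDP-glucose. Of 6 genes tested on this side, 4 were lower and 2 higher on average (median -0.06), and none was past an unadjusted p of 0.05. Among all genes tested, 44.9% lay below WT. Phosphoglucomutase pgm1, which links glycogen with glucose 6-phosphate, had 124, 121 and 98.5 FPKM in DN-MAML and 157, 122 and 139.9 FPKM in WT, with overlap (log2 -0.28, SE 0.13; limma, adjusted p = 0.407). The muscle glycogen synthase gys1 had 77.3, 59.4 and 69.7 FPKM in DN-MAML and 98.9, 52.2 and 67.6 FPKM in WT (log2 -0.04, SE 0.23; limma, adjusted p = 0.956), and the liver form gys2 was listed at 0 in 5 of the 6 samples and at 0.02 FPKM in the other. The UDP-glucose pyrophosphorylase copies went apart, ugp2a at 64.2, 55.8 and 52.1 FPKM in DN-MAML and 81.7, 66.2 and 63.5 FPKM in WT (log2 -0.29, SE 0.13), and ugp2b at 20.1, 16.7 and 20.5 FPKM in DN-MAML and 18.4, 12.5 and 18.3 FPKM in WT (log2 0.23, SE 0.17). Each overlapped between groups, but the share of ugp2a in their sum, 76.1%, 77.0% and 71.7% in DN-MAML and 81.7%, 84.1% and 77.6% in WT, did not. The branching enzyme copy GBE1 (1 of 2) averaged 0.085 FPKM. GBE1 (2 of 2) is only in the authors' deposited table, at -0.41 on the log2 scale (adjusted p = 0.0575). An identifier called GBE1 by the gene name table alone (ENSDARG00000099524) had 7.39, 7.09 and 7.77 FPKM in DN-MAML and 9.16, 10.4 and 8.93 FPKM in WT, with no overlap (log2 -0.33, SE 0.10; limma, adjusted p = 0.258).

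Glycogen phosphorylase, which releases glucose 1-phosphate, and the phosphorylase kinase that activates it had 6 of 9 genes below WT (median -0.19) and none past an unadjusted p of 0.05. Among all genes tested, 44.9% lay below WT. The muscle phosphorylase pygmb had 131, 145 and 168 FPKM in DN-MAML and 209.6, 141 and 185 FPKM in WT, with overlap (log2 -0.26, SE 0.16; limma, adjusted p = 0.519). The second muscle copy pygma had 4.45, 8.40 and 3.24 FPKM in DN-MAML and 7.06, 3.99 and 6.15 FPKM in WT (log2 -0.15, SE 0.35; limma, adjusted p = 0.887; log2 0.00472 with WT replicate 1 left out). The brain form pygb had 27.9, 28.1 and 31.7 FPKM in DN-MAML and 32.4, 32.7 and 38.0 FPKM in WT, with no overlap (log2 -0.23, SE 0.11; limma, adjusted p = 0.401). The liver form pygl had the most negative log2 difference of the 71 (-1.03, SE 0.64; limma, adjusted p = 0.534). Its values were 0.68, 3.86 and 4.50 FPKM in DN-MAML and 3.82, 4.85 and 8.94 FPKM in WT, with DN-MAML replicate 1 far below the rest. The catalytic kinase subunit phkg1a was lower with no overlap, at 2.86, 2.48 and 2.86 FPKM in DN-MAML and 3.32, 3.22 and 3.13 FPKM in WT (log2 -0.21, SE 0.11; limma, adjusted p = 0.474). The subunits phkg1b, phkg2, PHKA2 and phkb overlapped, with log2 differences from -0.19 to 0.17.

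Summed over isozymes, the mutase, hexokinase, lactate carrier and enolase steps had the lowest ratios to WT among the steps summed. The 3 phosphoglycerate mutases summed to 618, 598 and 557 FPKM in DN-MAML and 852, 730.0 and 742 FPKM in WT, a ratio of means of 0.763. The 5 enolases summed to 1881, 1991 and 1987 FPKM in DN-MAML and 2671, 2213 and 2276 FPKM in WT (0.818), and hexokinase, with HK2, to 138, 124 and 139.8 FPKM in DN-MAML and 189, 164 and 162 FPKM in WT (0.779). Lactate dehydrogenase, with LDHA, summed to 1703, 1621 and 1555 FPKM in DN-MAML and 1412, 1382 and 1417 FPKM in WT (1.16). In these 4 steps, and for the lactate carriers (0.809) and triosephosphate isomerase (0.894), the sums of the groups did not overlap. Of all single genes tested, 18.8% did not overlap. Of those with a mean of at least 100 FPKM, 20.4% were lower and 8.15% higher with no overlap. The hexokinase and triosephosphate isomerase sums come nearly all from hk1 and tpi1b, described above. In the lactate dehydrogenase sum, ldhba alone was higher with no overlap, while LDHA overlapped (log2 -0.01). Aldolase (0.889) and phosphofructokinase (0.919) overlapped, as did glyceraldehyde phosphate dehydrogenase (1.09) and pyruvate kinase (1.05). So did glycogen phosphorylase (0.826), glucose phosphate isomerase with GPI (0.851) and UDP-glucose pyrophosphorylase (0.880). The carriers of the GLUT1 and GLUT3 type (0.937) and the pyruvate dehydrogenase kinases (1.13) overlapped as well. Between 3 samples and 3, an exact two-sided permutation test cannot go below 0.1, so none is given.

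Among the genes grouped under other functions, pgm5 (ENSDARG00000060745) stood out. Its human protein, aciculin, is a relative of phosphoglucomutase that lacks the enzyme activity and sits at cell junctions and the cytoskeleton of muscle. It had 2.99, 4.42 and 3.58 FPKM in DN-MAML and 5.81, 6.93 and 6.78 FPKM in WT, with no overlap. The log2 difference was -0.76 (SE 0.15; limma, unadjusted p = 0.00102, adjusted p = 0.144, from 0.0725 to 0.349 over the alternatives), and pgm5 stands at -0.92 in the authors' deposited table (adjusted p = 0.000516). Of the 3 smooth muscle markers, acta2 had 56.3 ± 6.72 FPKM in DN-MAML and 139 ± 40.8 FPKM in WT, and tagln had 181 ± 18.5 FPKM in DN-MAML and 250.4 ± 70.7 FPKM in WT. The marker myh11a ran the other way, at 6.06 ± 1.34 FPKM in DN-MAML and 5.49 ± 1.63 FPKM in WT (SD, n = 3 each; log2 0.14). Their part in the difference of pgm5 was not tested. The others tested, the mitochondrial phosphatase pgam5 (19.9 ± 0.927 FPKM in DN-MAML and 20.2 ± 0.688 FPKM in WT; SD, n = 3 each), the amino acid carrier slc16a10, SLC2A4RG and the Cdk1-inhibiting kinase pkmyt1, overlapped, with log2 differences from -0.12 to 0.16.

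The spread between samples was not even. WT replicate 1 held the highest value for 16 of the 22 abundant carbohydrate genes and for 31 of the 71 tested, with a median deviation from the 6-sample mean of 0.24 log2 units over the 22, while WT replicates 2 and 3 were at -0.03 and 0.06 and the DN-MAML samples between -0.12 and 0.01. Together the 92 genes made up 2.09%, 1.94% and 2.19% of all FPKM in DN-MAML and 2.34%, 2.00% and 2.06% in WT. The mitochondrially encoded genes took 25.5% to 31.0% of the FPKM in DN-MAML and 22.4% to 28.2% in WT, and with them left out of the total the 92 genes made up 2.90%, 2.81% and 2.93% in DN-MAML and 3.09%, 2.79% and 2.65% in WT. These shares overlap on both scales. With totals set equal without the mitochondrially encoded genes, the median log2 difference of the 71 was -0.06 and 40 lay below WT, where the median of all genes was 0.08. Leaving out WT replicate 1 gave a median of -0.08 with 43 below WT, where the median of all genes was 0.06. With all 6 samples the median of all genes was 0.03.

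**Figure D4:**
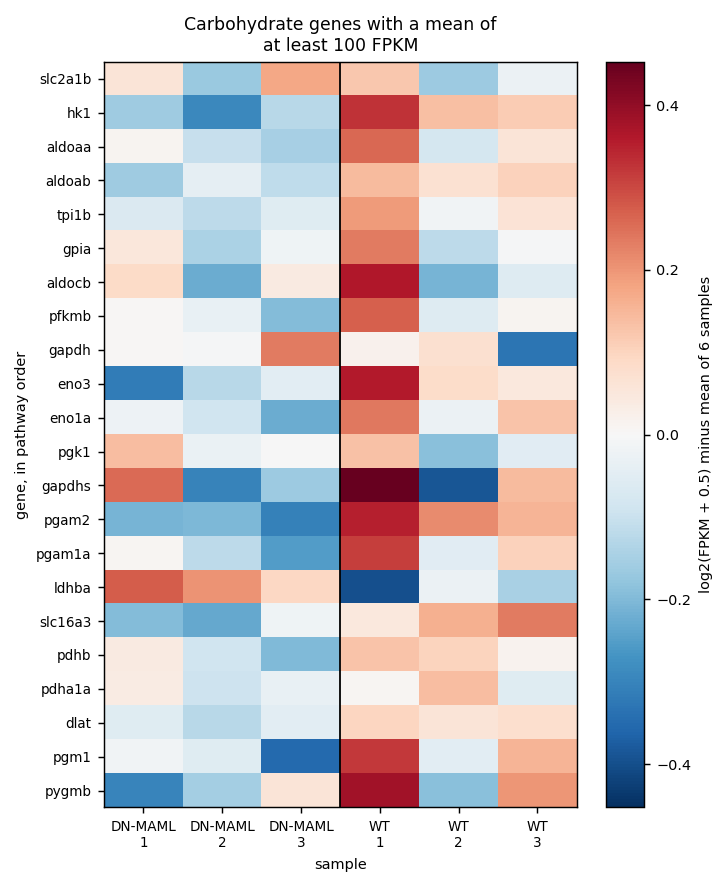
Log2(FPKM + 0.5) minus the mean of the 6 samples (colour) for the 22 carbohydrate genes with a mean of at least 100 FPKM (rows, in pathway order) in each DN-MAML and WT sample (columns). WT replicate 1 is red, the highest sample, in 16 of the 22 rows, and ldhba runs against most others, blue in WT replicate 1 and red in the DN-MAML samples.

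Since pgam2, eno3, aldoa and pygm are muscle isozymes, markers of skeletal muscle, which can be cut out along with the heart, were examined. Of 13 such markers, 5 were under 1 FPKM in every sample, the fast troponin tnni2a.4 was at 0 throughout and the fast myosin myhz1.1 reached at most 0.02 FPKM. The fast light chain mylpfa had 1.25, 0.83 and 0.29 FPKM in DN-MAML and 4.96, 0.38 and 0.54 FPKM in WT. WT replicate 1 was also the highest sample for tnnt3a, tnnt3b, pvalb1, pvalb2, atp2a1 and myhz2, at 0.18 to 2.89 FPKM. The highest sample was another one for mylpfb, ckma, ckmb, acta1b and myhz1.1. The part of skeletal muscle in the values of WT replicate 1 was not tested. All 13 summed to 4602 to 5253 FPKM in DN-MAML and 5569 to 7263 FPKM in WT, nearly all of it from ckma and acta1b. The sum therefore follows these genes and cannot be read as an amount of skeletal muscle. Whether their RNA came from heart or skeletal muscle was not tested. The creatine kinase ckma had 2379, 1861 and 2349.6 FPKM in DN-MAML and 1975, 2636 and 2746 FPKM in WT, with overlap (log2 -0.15, SE 0.15). The actin acta1b had 2838, 3198 and 2236 FPKM in DN-MAML and 3575, 4611 and 4313 FPKM in WT, with no overlap (log2 -0.60, SE 0.15; limma, adjusted p = 0.202). It stands at -0.65 in the authors' deposited table (adjusted p = 0.0231). Of 7 liver markers, 6 were under 1 FPKM in every sample, and the transferrin gene tfa, the exception, had 105, 102 and 103 FPKM in DN-MAML and 186, 86.1 and 108 FPKM in WT.

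Neighbouring pathways were counted from lists of genes outside the 92, each tested in the same fit. In none of them did a gene pass limma's test over all genes. Of all genes tested, 44.9% lay below WT. At an unadjusted p under 0.05, 6.23% of all genes tested were lower and 6.99% higher. In the citric acid cycle, 16 of 19 genes lay below WT (median -0.12) and 0 passed an unadjusted p of 0.05. Most of the 19 had means of at least 100 FPKM, and 65.4% of all genes at that level lay below WT. The citrate synthase gene cs had 211, 189 and 217 FPKM in DN-MAML and 225, 213 and 246 FPKM in WT (log2 -0.15, SE 0.10). Among pyruvate carriers, phosphatases and carboxylating enzymes, 8 of 11 lay below WT (median -0.10) and 3 were lower at an unadjusted p under 0.05, namely pdp1, the phosphatase that reactivates pyruvate dehydrogenase (log2 -0.33), the malic enzyme me1 (-0.27) and the alanine aminotransferase gpt2 (-0.37). Of the NADH shuttles, 7 of 12 lay below WT and 5 above (median -0.15). With no overlap, 6 were lower and 2 higher, where 8.98% of all genes tested were lower and 9.83% higher. Of the 6 lower, all but slc25a12 had means of at least 100 FPKM, where 20.4% of all genes were lower with no overlap. Those 2 higher were gpd1b (log2 0.36, SE 0.19) and gpd2 (log2 0.23, SE 0.11). The aspartate aminotransferase got1 had 273, 257 and 260.0 FPKM in DN-MAML and 359, 297 and 334 FPKM in WT (log2 -0.32, SE 0.09; limma, adjusted p = 0.241), and it stands at -0.35 in the authors' deposited table (adjusted p = 0.00560). The aspartate and glutamate carrier slc25a12 had 76.0, 67.0 and 72.4 FPKM in DN-MAML and 107, 86.8 and 86.5 FPKM in WT (log2 -0.37, SE 0.11; limma, adjusted p = 0.258).

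Gluconeogenesis (5 tested, 4 above WT, median 0.02) and the pentose phosphate pathway (8 tested, 6 above WT, median 0.05) had 0 genes past an unadjusted p of 0.05. In the authors' deposited table, 4 of the 6 gluconeogenesis genes with an adjusted p lie below WT (median -0.09). Among all genes tested, 55.1% lay above WT. Of the glycogen accessory genes, 7 of 12 lay above WT (median 0.06). The glycogen primer gyg1b had 5.31, 5.56 and 10.8 FPKM in DN-MAML and 2.03, 3.13 and 3.74 FPKM in WT, with no overlap (log2 1.12, SE 0.31; limma, adjusted p = 0.244), and it stands at 1.18 in the authors' deposited table (adjusted p = 0.00526). The more abundant primer copy gyg1a ran the other way, also with no overlap. It had 22.0, 21.2 and 25.3 FPKM in DN-MAML and 27.6, 26.1 and 25.5 FPKM in WT (log2 -0.21, SE 0.10; limma, adjusted p = 0.419). The gene stbd1, whose human protein tethers glycogen to membranes, had 15.1, 19.5 and 15.7 FPKM in DN-MAML and 27.4, 20.6 and 29.4 FPKM in WT, also with no overlap (log2 -0.60, SE 0.16; limma, adjusted p = 0.212). Of 18 regulators of glucose metabolism tested, 11 lay below WT (median -0.04). At an unadjusted p under 0.05 stood the hypoxia factor hif1aa (-0.22) and the phosphatase genes tigara (-0.38) and tigarb (-0.24) on the lower side. On the higher side were egln2 (0.37) and vhl (0.39), whose human proteins mark hypoxia factors for destruction.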

How the data were processed

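The submitters' processing notes name STAR, featureCounts, DESeq2, cutadapt and FastQC without versions or roles. Which genome build and annotation were used is not given in the sources, so no coordinates or sequences are printed. The authors deposited FPKM per gene and sample, rounded to 0.01. In the authors' deposited comparison table, per the file headers, the log2 fold change (positive where DN-MAML is higher, a sign tested on the FPKM), its error, a score (the change over its error) and p-values bear the names of a DESeq2 result. Its mean counts were not used.

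The members, lists and tests were chosen with earlier results of these data known. DN-MAML was set against WT in limma 3.58.1 (R 4.3.3) on log2(FPKM + 0.5), with a trended, robust variance estimate, no block, and Benjamini-Hochberg adjustment over 16556 genes (mean FPKM of 0.5 or more). Errors of log2 differences are limma's standard errors (SE). The 15 lists hold 168 genes. Sample values are given for the most abundant gene of each role, genes at an unadjusted p or authors' adjusted p under 0.05, and isozyme pairs with means of at least 5 FPKM. Others named were chosen after their values were seen. Names are those of the authors' deposited table. Identifiers missing there took the name in a gene name table, among them 11 of 12 look-alikes of the members and some list genes. The other look-alike (PKLR) was not tested. Python 3.11.15, pandas 2.3.3 and matplotlib 3.10.9 made tables and plots. Steps were tested on simulated data. Counts cover all members, and 1 of them is not reported here.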

Additional observations from a re-analysis of the deposited data

How the results depend on the processing

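Other pseudocounts, filters on low values, scalings and a variance estimate without the robust option left the number of carbohydrate genes past limma's threshold at 0. With the replicate number as a block it was also 0 (lowest adjusted p = 0.131). Leaving out 1 sample in turn gave 0 to 1, the 1 without WT replicate 1. Deviations of same-numbered samples correlated at 0.21, -0.03 and 0.14, and those of differently numbered samples from -0.22 to 0.09. This does not settle whether the numbers mark pairs. The main fit did not take them as pairs. The number of genes whose groups do not overlap was 18 of 71, where 18.8% of all genes tested did not overlap. It was 14 to 22 under other filters and scalings. With 1 sample left out it was 21 to 31, where fewer samples must be apart for any gene. The share of all genes is not given for these reduced sets, so their counts are not read as a result. The highest, 31, came without WT replicate 2. The split of the 18 genes was 13 lower and 5 higher, where 8.98% of all genes tested were lower and 9.83% higher with no overlap. The split was 20 and 2 after median-ratio scaling, 11 and 4 after quantile normalization, and 9 and 5 with totals set equal without mitochondrially encoded genes. The shares of all genes under these scalings, for both directions together only, are given with the results above. The median log2 difference, -0.12, ranged from -0.15 to -0.06 under other pseudocounts, filters and scalings and from -0.17 to -0.08 with 1 sample left out. The median of all genes moved too, from -0.01 to 0.08 and from -0.02 to 0.06 over these settings. Of the 24 named genes tested, 6 turned sign in some setting, none of them past the threshold. Depth could not be assessed from FPKM.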
